A study of Mus musculus with 12 samples.

Results

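Trp53, which encodes the transcription factor p53, and 9 genes known as its targets (Mdm2, Ccng1, Ccng2, Bax, Bbc3, Pmaip1, Sesn1, Sesn2 and Fas) were followed by RNA sequencing in the stromal vascular fraction (SVF) of mouse inguinal white adipose tissue. The genes were taken by symbol, and all 10 were found among the 55536 genes listed for each library. SVF is the mixture of adipocyte progenitors, mural, endothelial, immune and other cells that is left when the fat-filled adipocytes are removed. Each of 3 groups held 4 biological replicates from male mice kept at room temperature on a mixed C57BL6/J-129SV background: 2-month control, 12-month control and 12-month Pdgfrb-KO. The labels call both control groups wild type. The older controls are described as carrying Sma-CreERT2, a Cre that tamoxifen switches on and that is driven by the smooth muscle actin promoter, with an R26 reporter, and the alleles of the young controls are not given in the sources used here. The knockout mice also carried Pdgfrb fl/fl, and tamoxifen was given to them on 2 consecutive days before a washout. The paper does not say whether the sequenced controls received it. The Sma promoter is active in vascular smooth muscle as well as in beige adipocyte progenitors, so Pdgfrb was deleted only in cells of that lineage, and the rest of the SVF could still express it.

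p53 is held at a low level in unstressed cells by Mdm2, a ubiquitin ligase that p53 itself induces. Under DNA damage or other stress p53 accumulates and acts through its targets. Among them are the cyclins Ccng1 and Ccng2, the latter linked to cell cycle arrest. Others are killers acting at the mitochondrion (Bax, Bbc3 and Pmaip1), a death receptor (Fas) and the sestrins Sesn1 and Sesn2, which restrain mTORC1. Several of these genes also answer to other factors, such as Foxo proteins for Ccng2, Bbc3 and Sesn1 and Atf4 for Sesn2. p53 is regulated largely at the level of its protein, which was not measured here. In adipose tissue p53 is known for its link to cellular senescence.

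To show the stretches that lie in front of these genes, the 250 bases before the annotated start are given for Trp53, for Sesn2 and Fas, whose levels differed most between 2 and 12 months, and for both annotated starts of Sesn1, the gene that differed between knockout and control. All are from RefSeq on GRCm38.p6, read 5′ to 3′ along the gene's strand, and capitals mark matches to the p53 half-site consensus. The stretches are Trp53 at chr11:69580109-69580358 (plus strand), Sesn2 at chr4:132510457-132510706 (minus strand), Fas at chr19:34290409-34290658 (plus strand), and Sesn1 at chr10:41810324-41810573 and chr10:41887189-41887438 (plus strand).
Trp53: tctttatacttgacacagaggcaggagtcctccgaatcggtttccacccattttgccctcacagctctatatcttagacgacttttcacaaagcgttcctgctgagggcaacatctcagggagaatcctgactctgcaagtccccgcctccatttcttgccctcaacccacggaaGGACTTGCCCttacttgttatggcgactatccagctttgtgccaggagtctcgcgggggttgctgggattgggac
Sesn2: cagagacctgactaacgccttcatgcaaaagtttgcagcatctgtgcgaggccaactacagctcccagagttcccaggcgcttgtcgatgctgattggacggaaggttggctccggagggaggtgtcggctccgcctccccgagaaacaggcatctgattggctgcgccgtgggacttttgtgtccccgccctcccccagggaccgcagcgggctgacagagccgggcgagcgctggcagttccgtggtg
Fas: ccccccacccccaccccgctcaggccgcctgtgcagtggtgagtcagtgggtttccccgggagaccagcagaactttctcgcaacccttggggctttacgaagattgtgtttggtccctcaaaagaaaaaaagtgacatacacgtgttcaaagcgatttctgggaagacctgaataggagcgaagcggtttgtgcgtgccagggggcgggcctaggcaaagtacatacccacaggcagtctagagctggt
Sesn1, first start: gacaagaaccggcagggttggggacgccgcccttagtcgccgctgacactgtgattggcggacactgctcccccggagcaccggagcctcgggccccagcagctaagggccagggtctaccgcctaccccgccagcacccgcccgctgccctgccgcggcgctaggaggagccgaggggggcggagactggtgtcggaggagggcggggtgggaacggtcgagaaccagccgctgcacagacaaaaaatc
Sesn1, second start: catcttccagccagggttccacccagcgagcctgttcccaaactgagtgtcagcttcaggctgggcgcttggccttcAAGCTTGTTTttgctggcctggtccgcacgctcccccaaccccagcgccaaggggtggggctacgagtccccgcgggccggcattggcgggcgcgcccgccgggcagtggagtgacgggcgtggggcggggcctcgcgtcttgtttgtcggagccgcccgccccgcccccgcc

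Windows of 300 bases, from 250 before to 50 after a start, were read for 9 of the 10 genes, 12 windows in all. Pmaip1 was left out of this search. The p53 half-site consensus, a palindrome of 10 letters that reads the same on both strands, was matched in 5 windows, 1 each of Trp53, Mdm2, Ccng1, Bax and Sesn1, against 8.36% of all 32851 windows. In Trp53 the match ran from 75 to 66 bases before the start, and in Sesn1 it lay before the second start only. A pair of half-sites 0 to 13 bases apart, which makes a full p53 site, was in none of the 12 windows and in 0.0731% of all windows. The letters GTAAACA, bound by Foxo factors, were found on either strand in 1 window each of Bbc3, Mdm2 and Sesn1 (first start) and in 3.65% of all windows, and TGATGNAA, a core bound with Atf4, was in none of the 12 and in 3.97% of all. The windows cover start sites only, and many p53 sites are known to lie elsewhere, often in introns.

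The values are normalized counts, that is, reads per gene divided by a factor for the library's depth, with library totals of about 19620000 to 21870000. From the pattern of the lowest values, the counts behind them were estimated. They came to 20950000 to 29030000 in the 8 control libraries and 13780000 to 19970000 in the 4 knockout libraries. The value of 19970000, for knockout replicate 4, is the least certain. A factor of 2.036 in place of 1.018 fitted only slightly worse (log-likelihood gap 3.6) and would put that library above every control. Pdgfrb, the targeted gene, stood at 3259.2 ± 829 (SD, n = 4) in 12-month controls and 1870.8 ± 197 in knockouts (log2 -0.77, adjusted p = 0.016, limma), and the groups did not overlap. Progenitor, mural, endothelial and macrophage markers were all present. Between 2 and 12 months 5 of 7 macrophage markers rose and the other two did not pass, with a summed level of 11996 to 17535 at 2 months and 24857 to 36355 at 12 months. In knockouts 6 of 7 macrophage markers were higher than in 12-month controls (49417 to 78671), all 6 markers of dividing cells were higher (2025 to 2820 in controls, 4794 to 6446 in knockouts), and 4 of 4 skeletal muscle markers were lower (2015 to 5272 against 434 to 1277). None of these lists had a marker at 0 in every library. In bulk SVF, fewer cells of a type and less RNA per cell cannot be told apart.

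The first comparison asked how these genes differ between 2 and 12 months in controls. Fas was higher at 12 months, while Sesn2, Ccng2, Bbc3 and Sesn1 were lower, and Trp53, Mdm2, Ccng1, Bax and Pmaip1 did not pass the test. The change was largest for Fas, at 1.74-fold, and for Sesn2, at 0.601-fold. Thus 5 of 10 genes passed (1 higher, 4 lower) where 22.7% of the 16399 genes tested did, 11.3% higher and 11.4% lower. For the same 5 genes the groups did not overlap, against 24.8% of all genes. The median log2 change was -0.2 over the 10 genes and -0.008 over all genes tested. A gene passed when its p from limma on log2(normalized count + 1), adjusted over all genes tested, was under 0.05, and fold changes are on that scale.

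**Figure D1:**
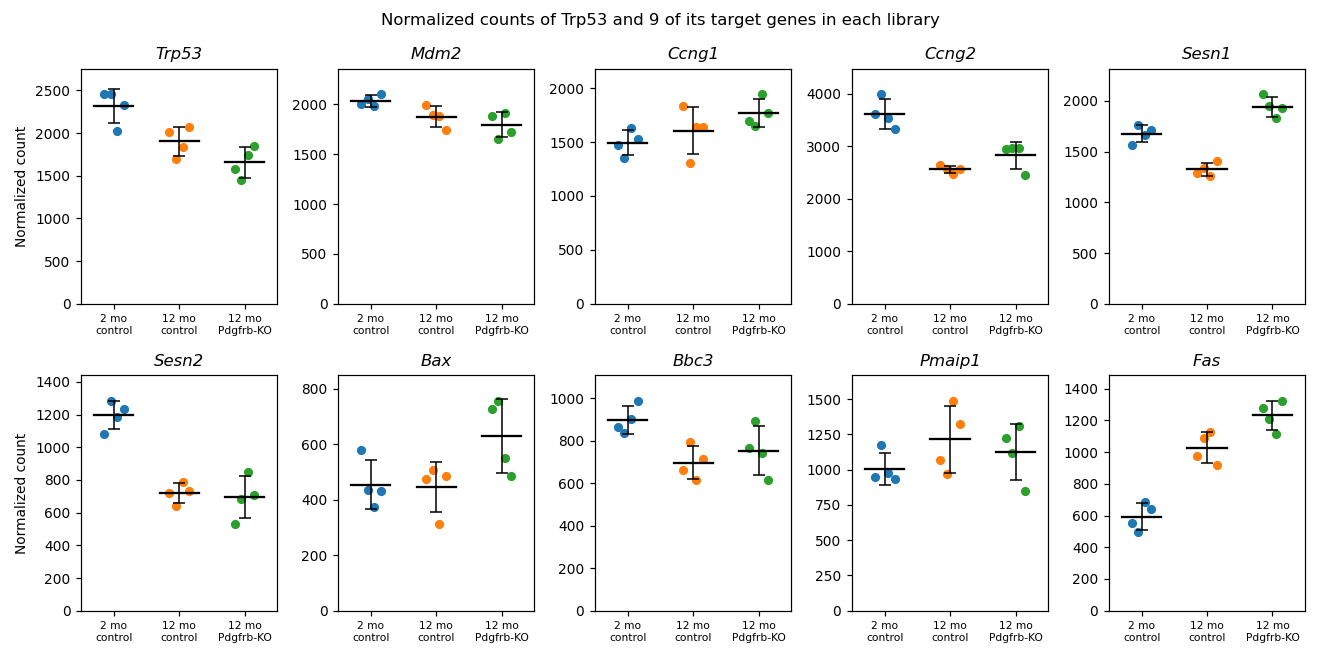
Normalized counts (vertical axis from 0) of the 10 genes in each library (points) of the 3 groups, with the mean and SD of 4 libraries as black lines. Fas stands above every 2-month library at 12 months, Sesn2 and Ccng2 stand below, and Sesn1 is highest in the 4 knockout libraries.

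Trp53 itself (chromosome 11, 69580359 to 69591873, plus strand, GRCm38) had normalized counts of 2454, 2461, 2029 and 2332 at 2 months, 2018, 1697, 1832 and 2071 in 12-month controls and 1582, 1447, 1743 and 1854 in knockouts. The 2-month and 12-month control ranges overlapped only because the lowest 2-month library, replicate 3 at 2029, fell below the highest 12-month library at 2071. The log2 difference with age was -0.28 (95% confidence interval -0.49 to -0.08, adjusted p = 0.0506, limma), just outside the threshold. An exact two-sided permutation test of the same difference over the 70 regroupings of 8 libraries gave p = 0.0571, where 0.0286 is the smallest the design allows. Of 19 alternative settings, 2 passed by limma. Without 2-month replicate 3 the difference was -0.35 (adjusted p = 0.039), and it also passed when the test was kept to genes with a mean of at least 50 (adjusted p = 0.0475). The other settings did not pass, with an adjusted p of up to 0.13 (without 2-month replicate 2). Knockouts and 12-month controls overlapped, with a log2 difference of -0.2 (-0.45 to 0.05, adjusted p = 0.277, limma; exact permutation p = 0.143).

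Mdm2 (chromosome 10, 117688875 to 117710758, minus strand), the ligase that marks p53 for destruction, varied little, with 2000, 2054, 1980 and 2106 at 2 months, 1995, 1891, 1885 and 1740 in 12-month controls and 1888, 1655, 1917 and 1724 in knockouts. Its log2 difference with age was -0.12 (-0.28 to 0.05, adjusted p = 0.287) and with knockout -0.07 (-0.28 to 0.15, adjusted p = 0.709). Neither comparison passed, and both intervals lay within 0.28 of 0 on the log2 scale.

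Of the cyclins G, Ccng2 fell with age and Ccng1 did not pass. Ccng2 (chromosome 5, 93267257 to 93276231, plus strand), an unusual cyclin linked to cell cycle arrest, had 3606, 3999, 3537 and 3326 at 2 months and 2638, 2559, 2463 and 2573 in 12-month controls. The groups stood well apart, and Ccng2 fell by 0.5 on the log2 scale (SE 0.0824, adjusted p = 0.00153). In knockouts it was 2945, 2961, 2967 and 2447, so that 3 libraries stood above every 12-month control and the fourth below them all (log2 0.14, adjusted p = 0.399). Ccng1 (chromosome 11, 40748552 to 40755311, minus strand), one of the best known p53 targets, had 1474, 1350, 1635 and 1524 at 2 months, 1834, 1310, 1637 and 1638 in 12-month controls and 1698, 1648, 1948 and 1773 in knockouts. Its ranges overlapped in both comparisons, with log2 differences of 0.09 for age (adjusted p = 0.555) and 0.15 for knockout (adjusted p = 0.462).

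Both sestrins fell with age, and in the knockout Sesn1 passed the test and Sesn2 did not. Sesn1 (chromosome 10, 41809935 to 41908424, plus strand) had 1565, 1758, 1664 and 1713 at 2 months, 1291, 1342, 1256 and 1408 in 12-month controls and 2069, 1945, 1828 and 1924 in knockouts. None of the 3 groups overlapped another, the 12-month controls being lowest and the knockouts highest. Sesn1 fell by 0.34 on the log2 scale with age (SE 0.0782, adjusted p = 0.00976) and was higher by 0.55 in knockouts (SE 0.0925, 0.35 to 0.75, adjusted p = 0.00466), a 1.47-fold difference. Sesn2 (chromosome 4, 132492032 to 132510501, minus strand), which stress also induces through Atf4, had 1083, 1285, 1187 and 1231 at 2 months, 719, 639, 786 and 733 in 12-month controls and 533, 684, 850 and 710 in knockouts. All 8 of the 12-month libraries lay below the lowest 2-month library. Sesn2 fell by 0.73 with age (SE 0.0914, adjusted p = 0.00026), and the knockouts spread on both sides of their controls (log2 -0.07, -0.38 to 0.24, adjusted p = 0.799).

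Among the killers acting at the mitochondrion, Bbc3 (chromosome 7, 16308393 to 16318205, plus strand), which encodes Puma, was the only one of the 3 to pass with age or knockout. It had 864, 838, 902 and 989 at 2 months and 664, 796, 614 and 716 in 12-month controls, with no overlap, and fell by 0.37 (SE 0.0988, adjusted p = 0.0202). That call was lost without 2-month replicate 3 (adjusted p = 0.0538) or replicate 4 (0.0676), with log2 differences of -0.37 and -0.32. In knockouts Bbc3 was 765, 894, 743 and 615, overlapping the controls (log2 0.11, adjusted p = 0.645). Pmaip1, which encodes Noxa, had 945, 1173, 973 and 931 at 2 months, 1071, 971, 1489 and 1325 in 12-month controls and 1222, 1117, 1309 and 851 in knockouts. Its groups overlapped in both comparisons, at log2 0.26 for age (adjusted p = 0.179) and -0.11 for knockout (adjusted p = 0.718).

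Bax (chromosome 7, 45461697 to 45466898, minus strand), which encodes a pore-forming protein of the outer mitochondrial membrane, was the most variable of the 10, with an SD of 19.5 to 21.1% of the mean within groups. It had 580, 435, 372 and 430 at 2 months, 476, 508, 311 and 486 in 12-month controls and 727, 757, 551 and 484 in knockouts. Of the knockouts 3 stood above every 12-month control, and the log2 difference of 0.5 (0.08 to 0.92) did not pass (adjusted p = 0.123). With age the difference was -0.04 (adjusted p = 0.896). Bax shares exons on the same strand with the predicted gene Gm45808, which is listed at 0 in every group, so how reads of the shared exons were counted makes the level of Bax uncertain.

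Fas (chromosome 19, 34290666 to 34327772, plus strand), the receptor that starts the extrinsic death pathway and that lymphocytes and macrophages also carry, had 551, 495, 688 and 643 at 2 months, 976, 1090, 1129 and 921 in 12-month controls and 1276, 1211, 1117 and 1325 in knockouts. Every 12-month library lay above every 2-month library. Fas rose by 0.8 on the log2 scale with age (SE 0.115, 0.55 to 1.05, adjusted p = 0.000648). In knockouts it stood at log2 0.26 over 12-month controls (0.03 to 0.49, adjusted p = 0.143), with overlap through 1 knockout library. The summed level of macrophage markers rose in the same order of groups. Of 6 T cell markers 1 was lower with age and none passed in knockouts. Of 5 B cell markers none passed with age and 1 was higher in knockouts. The part of any of these cells in the Fas level was not tested.

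**Figure D2:**
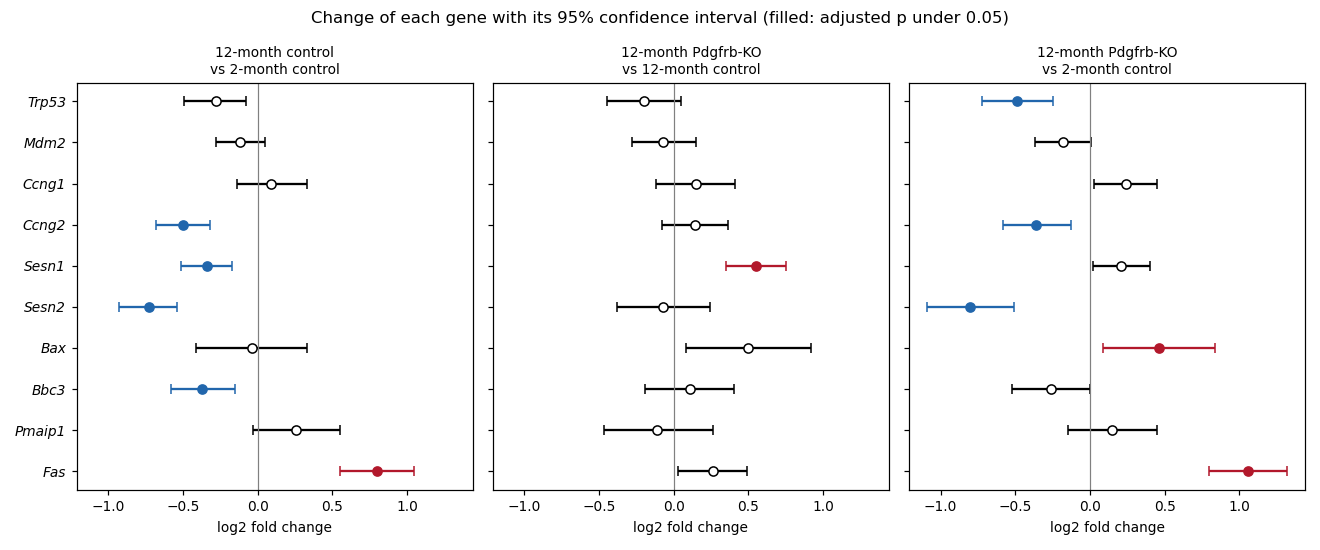
Log2 fold change of each gene (points) with its 95% confidence interval (bars) in the 3 comparisons, each over 4 against 4 libraries. Filled points passed the test, red for higher and blue for lower: 5 genes for age, Sesn1 for knockout and 5 for knockout against 2 months.

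The second comparison, Pdgfrb-KO against control at 12 months, asked how these genes differ in aged tissue where Pdgfrb was deleted in Sma-lineage cells. Sesn1 was the only one of the 10 to pass, where 9.42% of 16344 genes tested passed, 4.96% higher and 4.46% lower. Its groups were also the only ones that did not overlap, against 17.1% of all genes. The median log2 difference over the 10 was 0.12, and -0.013 over all genes tested. Sesn1 passed under all 19 alternative settings, with log2 differences of 0.5 to 0.58.

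Setting the knockouts against 2-month controls, which differ from them in both age and genotype, shows how far each gene stood from its young level. Fas was higher (2.08-fold, adjusted p = 8.4e-05), as was Bax (1.38-fold, adjusted p = 0.0463, groups overlapping). Sesn2 (0.574-fold, adjusted p = 0.000926), Trp53 (0.713-fold, adjusted p = 0.00434) and Ccng2 (0.782-fold, adjusted p = 0.0157) were lower. Of all 16370 genes tested 45.1% passed here, 22.4% higher and 22.7% lower, so 5 of 10 is close to the background. Groups did not overlap for 7 of the 10 and for 40.8% of all genes. Trp53 in all 4 knockouts lay below every 2-month library, and the exact permutation p was 0.0286. Sesn1 in all 4 knockouts lay above every 2-month library, by 0.21 on the log2 scale (0.02 to 0.4, adjusted p = 0.0648). The Ccng2 call was lost without 2-month replicate 2 (adjusted p = 0.055), and that of Bax under 8 of 19 alternatives. This comparison shares its libraries with the other two, so its values add no independent evidence to them.

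Divided by exon length, the mean levels of the 10 genes ran from 288 to 663 normalized counts per kb at 2 months, from 207 to 499 in 12-month controls and from 200 to 598 in knockouts. At 2 months Ccng2 was highest at 663 ± 51.5 normalized counts per kb (SD, n = 4), followed by Trp53 at 573 ± 50 and Ccng1 at 426 ± 33.7, and the libraries of these neighbours in the order did not overlap. From Ccng1 down to Bax (288 ± 56.2) and Fas (288 ± 42.4) each gene overlapped the next. In 12-month controls Fas (499 ± 47) stood first by its mean and Sesn2 (207 ± 17.5) last, and all neighbours overlapped. In knockouts Fas (598 ± 43.6) was again first, Sesn1 stood at 488 ± 24.9, and Sesn2 (200 ± 37.4) was last, apart from Mdm2 (353 ± 24.9) just above it.

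**Figure D3:**
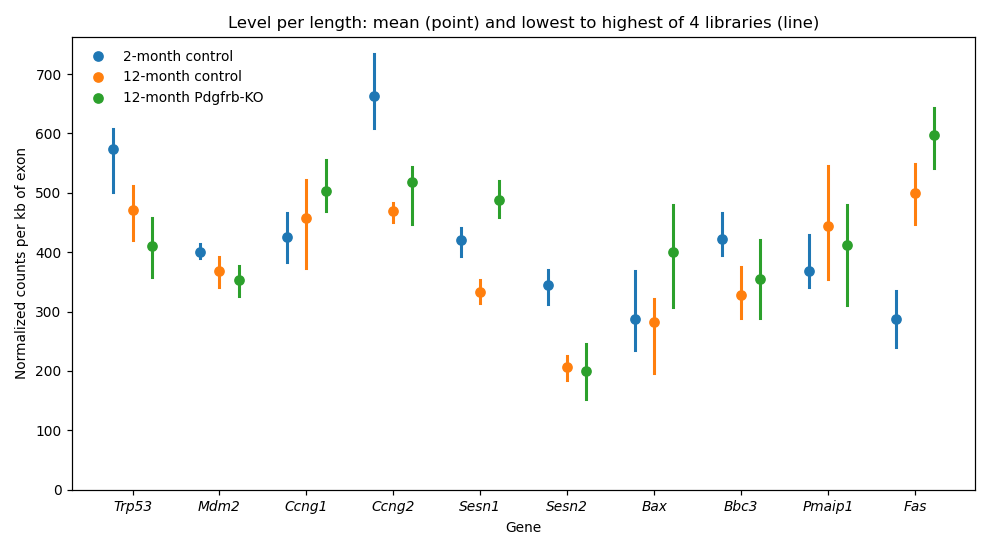
Level of each gene per kb of exon (vertical axis, normalized counts per kb, from 0), with the mean (point) and the lowest to highest of 4 libraries (line) in the 3 groups. Fas moves from the bottom at 288 to the top at 499 and 598, and Sesn2 from 344 to 207 and 200.

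Beyond these genes, 81 others of the p53 pathway were read in 6 lists. With age 8 of the 80 tested were higher, 16 lower and 56 did not pass, so 30.0% passed beside 22.7% of all genes. The excess of lower calls depended on the scaling: with libraries rescaled to equal totals, 11 pathway genes were higher and 11 lower, and over all genes 2234 were higher and 1509 lower in place of 1853 and 1874. Among 19 regulators of p53, 5 were lower, namely the phosphatase Ppm1d (1118 ± 88.4 to 867 ± 61.7, log2 -0.37), the deacetylase Sirt1 (log2 -0.37), the acetyltransferases Ep300 (-0.5) and Crebbp (-0.39) and the deubiquitinase Usp7 (-0.26). The ligase Rchy1 (0.27, adjusted p = 0.041, limma) and the ribosomal protein Rpl11 (0.39, adjusted p = 0.0495), which restrains Mdm2, were higher. The groups overlapped for Rpl11, Ep300 and Crebbp. Mdm4, the partner of Mdm2, did not pass (log2 -0.18, adjusted p = 0.153). Trp53bp2 and Ppp1r13b, cofactors that steer p53 to death genes, were both lower by 0.32 on the log2 scale, out of 4 family members and cofactors tested.

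Of 12 other targets with a role in cell cycle arrest, Plk3 (3364 ± 172 to 2242 ± 271, log2 -0.59), Ckap2 (-0.5) and the stress gene Gadd45a (-0.36) were lower with age, and none was higher by limma, also at an unadjusted p under 0.05. Cdkn1a, the p21 inhibitor that is the classical p53 target, stood at 12449 ± 719 and 11152 ± 1270 and did not pass (log2 -0.16, adjusted p = 0.26). Of 13 targets tied to cell death, the lysosomal gene Dram1 (285 ± 39.9 to 500 ± 61.5, log2 0.81) and the receptor Eda2r (84.5 ± 3.42 to 122 ± 16.5, 0.51) rose, and the death receptor Tnfrsf10b fell by 0.43. Of 15 with a role in metabolism or repair, Ddit4, an mTORC1 inhibitor like the sestrins, fell from 7213 ± 951 to 4052 ± 335 (log2 -0.83, adjusted p = 0.000381). Ptpn14 (-0.83) and the third sestrin, Sesn3 (-0.44), were lower too, and Dcxr (0.68) and Abcb1b (0.38) were higher. Of 17 BCL2 family genes and caspases, Bcl2l11, which encodes the killer Bim, fell by 0.78 (1338 ± 167 to 775 ± 51.9, adjusted p = 0.000339) and Casp8 by 0.31, while Hrk, at 10 ± 2.58 and 27.2 ± 9.98 counts, and Bad (0.31) were higher.

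In knockouts 3 of 79 pathway genes tested were higher than in 12-month controls, 5 lower and 71 did not pass, 10.1% beside 9.42% of all genes. Cdkn2a encodes p16 and Arf, the latter an inhibitor of Mdm2. It was higher at a low level (21.5 ± 5 against 53.5 ± 22.7, log2 1.22, adjusted p = 0.036, limma). That call was lost at adjusted p under 0.03, where 1 of the 3 higher pathway genes was left. Between 2 and 12 months Cdkn2a did not pass (10.2 ± 6.13 to 21.5 ± 5, log2 1.11, adjusted p = 0.0523, limma). Ckap2, a spindle protein gene that dividing cells express, was higher (151 ± 22.1 against 312 ± 28.8, log2 1.04), as were all 6 markers of dividing cells, whose part in it was not tested. Dcxr was also higher (0.79). The lower genes were the kinase Plk2 (6425 ± 1030 against 3854 ± 394, log2 -0.73), Eda2r (122 ± 16.5 against 58.8 ± 5.56, -1.03), Tnfrsf10b (-0.65), Trp53i11 (-0.7) and Abcb1b (-0.52). None of 17 BCL2 family genes and caspases passed in this comparison by limma, and 8 had an unadjusted p under 0.05 (5 higher, 3 lower). The share of all genes under that unadjusted threshold is not given here, so the 8 cannot be set against a background.

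**Figure D4:**
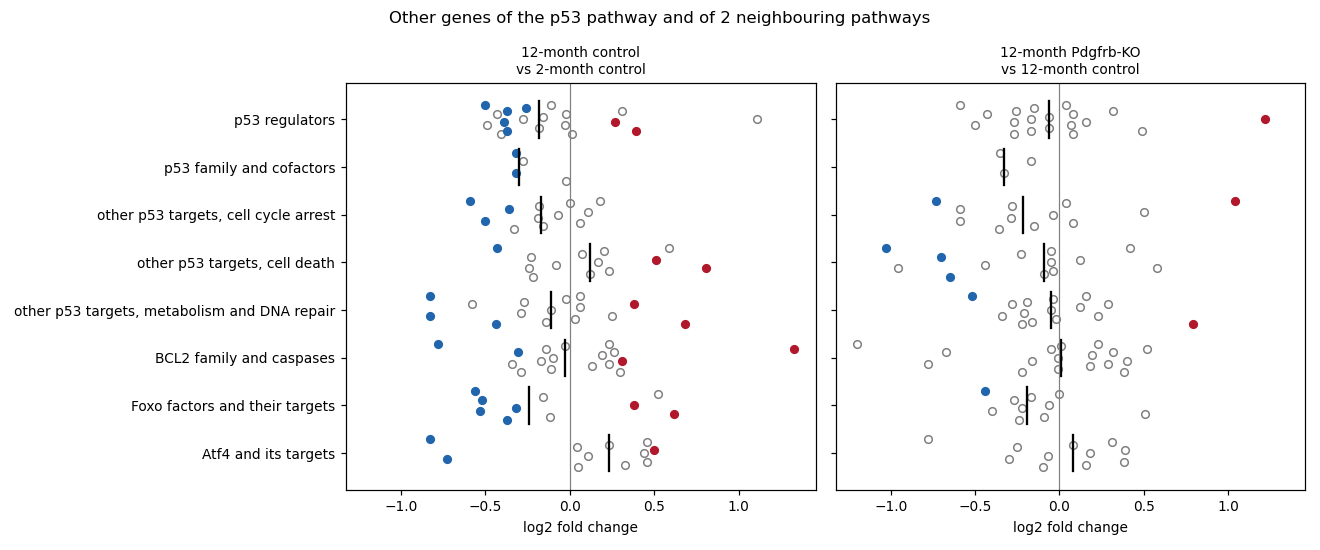
Log2 fold change (horizontal axis) of the tested genes in 6 lists of the p53 pathway and in the Foxo and Atf4 lists, for age (left) and knockout (right). Each point is 1 gene, filled red where higher and blue where lower by the test, and black lines are list medians, which run from -0.3 to 0.23 for age and from -0.33 to 0.08 for knockout.

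Foxo and Atf4 genes were read beside these because they act on some of the same targets. Whether they did so here was not tested. Of all genes tested, 11.4% passed as lower and 11.3% as higher with age, and 9.42% passed in knockouts. Of 10 Foxo factors and targets, Foxo3 (2425 ± 128 to 1678 ± 83.7, log2 -0.53), Foxo4 (-0.37), Foxo1 (-0.32), Cited2 (-0.52) and the muscle ligase Fbxo32 (-0.56) were lower with age, and the mitophagy kinase Pink1 (0.62) and Gabarapl1 (0.38) were higher. In knockouts only Gabarapl1 passed (log2 -0.44, adjusted p = 0.0499). Of 11 Atf4 genes, Sesn2 and Ddit4, which the lists above also hold, were lower with age and Atf5 was higher (log2 0.5). None passed in knockouts by limma, where 3 had an unadjusted p under 0.05. The share of all genes under that unadjusted threshold is not given here. Atf4 itself stood at 13027 ± 598 at 2 months and 14184 ± 2260 at 12 months (adjusted p = 0.531).

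The genes whose levels followed Trp53 most closely over the 12 libraries, of 11180 compared, were Ddx39b (Pearson r = 0.979), Nup50 (0.968), Baz2a (0.961), Atxn2l (0.959) and Map4k2 (0.955). Like Trp53, each had its highest mean at 2 months and its lowest in knockouts, as Ddx39b with 3755, 3282 and 3066 normalized counts. The points share the 3 groups and the depth factors of their libraries, so these correlations are a description.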

How the data were processed

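Poly(A) RNA of 12 SVF samples was sequenced from directional libraries. According to the submitters' processing notes, Trim Galore 0.6.0 with cutadapt, FastQC, STAR 2.7.0e, GRCm38 and DESeq2 1.26.0 were used. The read counter, its annotation and its use of strand are not given in the sources used here. The authors deposited DESeq2-normalized counts rounded to whole numbers, a normalized score rather than raw counts, in 2 tables that hold equal 12-month control values for 100% of genes and were joined by identifier. Depth per library was estimated from gaps among low values as the best-fitting factor, with no standard error given, and that of knockout replicate 4 is uncertain.

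A gene was tested where 4 or more of the 8 libraries reached 10, by limma 3.58.1 in R 4.3.3 on log2(value + 1), with trend and robust settings, two-sided, Benjamini-Hochberg adjusted over all genes tested. Each comparison used its own 8 libraries. Scripts were tested on simulated data. All 10 genes passed the filter in every comparison. No library pair was identical.

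The members and lists were chosen with earlier results of these data known. The text names all 10 genes, Pdgfrb, from each list up to 4 genes past the threshold by smallest p and up to 2 others by mean, genes behind counts up to 5, 5 genes correlated with Trp53 (mean at least 100), and overlapping genes. Marker lists were read for the cells SVF can hold. Ddit3 was not matched once and was left out. Alternatives changed the pseudocount, filter, scaling, limma settings, weights, block, shared fit, threshold and libraries.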

Additional observations from a re-analysis of the deposited data

Results flagged for a closer look

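Among 30 groups of 4 values, 2 held a library far from the other three, and chance gives about 1 in 20. Ccng2 in knockout replicate 4 was 2447, beside 2945 to 2967 in the other knockouts. Bax in 12-month control replicate 3 was 311, beside 476 to 508 in the other controls.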

How the results depend on the processing

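No difference that passed the test changed sign under the alternatives run. Among differences that did not pass, that of Bax with age (-0.04) was 0.0 on equal library totals, 0.05 with weights per library, 0.09 without 2-month replicate 1 and 0.13 without 12-month control replicate 3. With a library left out, Bax for age ran from -0.13 to 0.13, Sesn2 for knockout from -0.17 to 0.05 (without knockout replicate 1) and Pmaip1 for knockout from -0.21 to 0.02 (without knockout replicate 4). Over all genes, knockout calls went from 810 higher and 729 lower to 730 and 859 when libraries were rescaled to equal totals. The age calls of Ccng2, Sesn1, Sesn2 and Fas and the knockout call of Sesn1 held under all 19. Of 10 genes, 3 passed for knockout against 2 months without 2-month replicate 2, and the range over libraries left out in turn was 3 to 5. Pathway genes past the threshold for age numbered 13 without trend and robust settings, 15 at adjusted p under 0.03, and 12 to 24 with a library left out. For knockout they numbered 5 without trend and robust settings, 5 at adjusted p under 0.03, and 5 to 9 with a library left out. With a library left out, the Trp53 age difference ran from -0.35 (without 2-month replicate 3, exact permutation p = 0.0286) to -0.23 (without 12-month control replicate 2, p = 0.0857). The highest exact permutation p was 0.114, without 2-month replicate 1 or replicate 2. Over all genes, calls for age were 3727 and ranged from 2405 (without 2-month replicate 4) to 4018 with a library left out, and for knockout 1539, ranging from 875 (without 12-month control replicate 3) to 1925 (without knockout replicate 4). One fit over all 12 libraries gave 2542 for knockout. After upper-quartile scaling Sesn1 (adjusted p = 0.039) and Ccng1 (adjusted p = 0.0421) also passed for knockout against 2 months. The causes were not tested.

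Deviations of same-numbered libraries correlated between -0.21 and 0.14 for age and between -0.01 and 0.37 for knockout. Whether the replicate numbers pair the samples was not tested. With the replicate block, 2 of the 10 genes passed for knockout (Bax at log2 0.5, adjusted p = 0.0422, beside Sesn1), 14 pathway genes passed instead of 8, and 2380 genes in all.

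With 4 libraries a group, the Trp53 age difference of -0.28 (SE 0.0957) lay just outside the threshold by limma (adjusted p = 0.0506). Usp7, with a smaller SE of 0.0807, passed at log2 -0.26 (adjusted p = 0.0364).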

Other observations

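Marker genes of several cell types differed between the groups in which the p53 targets were read. With age 6 of 7 mural cell markers, which Sma-lineage cells express, were lower and 1 was higher, and all 5 Schwann cell markers were lower (summed level 9398 to 12259 at 2 months, 4065 to 4679 at 12 months). All 5 mast cell markers, 3 of 4 plasma cell markers tested and 4 of 5 mature adipocyte markers were higher with age. Of 8 adipocyte progenitor markers 5 were higher and 1 lower with age, and 1 was higher and 3 lower in knockouts. Col1a1 was the 1 lower with age and the 1 higher in knockouts. The summed level of the 8 ran against these counts. It was 297120 to 360020 at 2 months, 161014 to 191410 in 12-month controls and 229655 to 356629 in knockouts.

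In knockouts all 4 neutrophil markers tested were higher than in 12-month controls (summed level 208 to 421 in controls, 871 to 1619 in knockouts). Of 9 immediate early genes, which cell dissociation is known to induce, 1 was lower with age. None passed in knockouts by limma, where 4 had an unadjusted p under 0.05. The share of all genes under that unadjusted threshold is not given here.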
